A study of Homo sapiens with 6 samples.

Results

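Messenger RNA levels of 32 genes of cholesterol and fatty acid synthesis were examined in 6 libraries of Sum159 cells, a human line from triple-negative breast cancer. The genes are a set by known function, taken by symbol, and all 32 were found among the 58336 genes of the count table. They make up 7 groups by role: 7 genes of the mevalonate steps, 11 of the squalene and sterol ring steps, 3 sterol regulators, 1 sterol transporter, 3 suppliers of acetyl-CoA and NADPH, 2 of fatty acid synthesis proper and 5 of desaturation and elongation.

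The groups differ in ITGB4, which encodes the integrin beta-4 chain, a laminin receptor subunit. One library came from ITGB4-high cells grown in dishes (n = 1, no clone named). LM2 lung cells were ITGB4-low clones 1 and 3 put into mouse lungs together with LM2 cells, which descend from MDA-MB-231 breast cancer cells and colonise lung (n = 2). Bleomycin lung cells were ITGB4-low clone 1 from lungs of mice given bleomycin, an agent that damages lung tissue, through the trachea (n = 1). Control cells were ITGB4-low clones 1 and 3 grown in dishes (n = 2). The 3 lung-recovered libraries share tail-vein injection, lung dissociation, overnight culture and sorting for tdTomato, a red fluorescent protein. Those steps go with the trigger, so trigger and lung passage cannot be told apart, and lungs without a trigger were not analysed here. The medium named for cells from lungs was Ham's F-12 with fetal bovine serum, insulin, hydrocortisone and penicillin/streptomycin. Serum is a source of cholesterol and insulin stimulates lipid synthesis, and no medium was named separately for the dish-grown groups. The clone 3 name of 1 LM2 library rests on its title and the series design, since the treatment text names clone 1 alone. Each ITGB4-low arm rests on 1 or 2 clones, and the number of mice behind a lung library is not given in the labels.

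Cells make cholesterol from acetyl-CoA through mevalonate, squalene and lanosterol, and make saturated fatty acids from the same acetyl-CoA through malonyl-CoA. When membrane sterol is low, SCAP carries the transcription factors SREBP-1 and SREBP-2 out of the endoplasmic reticulum for cleavage, and the released fragments activate most of these genes. INSIG proteins hold SCAP back when sterol is plentiful, while oxysterols then activate LXR receptors, which drive sterol export and also SREBF1. Breast cancer cells often keep fatty acid synthesis active, and FASN is a much studied enzyme in them.

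Promoters are shown for 4 sterol genes that stood lowest in ITGB4-high cells among those with an entry and at least 10 CPM in controls, and for SREBF2, where the search found a sterol regulatory element. Sequences are from RefSeq (GRCh38.p14), 250 bases before to 50 after the annotated start, in the direction of the gene. Capitals mark matches on either strand to TCACNCCAC (sterol regulatory element core), CACGTG (E-box, another SREBP-binding motif) and CCAAT (the NF-Y box, read as ATTGG on the other strand).
INSIG1, chr7:155297628-155297927, plus strand: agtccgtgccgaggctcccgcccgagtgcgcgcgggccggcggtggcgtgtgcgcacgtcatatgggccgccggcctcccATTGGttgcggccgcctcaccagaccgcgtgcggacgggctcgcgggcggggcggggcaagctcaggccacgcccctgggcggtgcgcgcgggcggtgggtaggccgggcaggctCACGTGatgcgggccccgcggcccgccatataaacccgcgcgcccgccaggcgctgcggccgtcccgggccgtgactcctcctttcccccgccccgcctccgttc
STARD4, chr5:111512486-111512785, minus strand: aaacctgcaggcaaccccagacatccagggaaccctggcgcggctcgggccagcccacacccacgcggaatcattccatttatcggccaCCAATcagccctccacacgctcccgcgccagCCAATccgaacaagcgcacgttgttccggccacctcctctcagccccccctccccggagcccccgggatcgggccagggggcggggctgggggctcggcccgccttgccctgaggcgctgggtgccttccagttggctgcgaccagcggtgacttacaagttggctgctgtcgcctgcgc
SC5D, chr11:121292521-121292820, plus strand: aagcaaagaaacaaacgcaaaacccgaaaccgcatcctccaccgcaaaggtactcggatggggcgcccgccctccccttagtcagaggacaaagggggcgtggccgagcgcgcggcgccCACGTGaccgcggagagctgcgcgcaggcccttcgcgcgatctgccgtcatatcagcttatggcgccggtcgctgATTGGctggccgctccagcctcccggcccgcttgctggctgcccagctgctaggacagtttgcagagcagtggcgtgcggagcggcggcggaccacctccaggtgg
MSMO1, chr4:165327419-165327718, plus strand: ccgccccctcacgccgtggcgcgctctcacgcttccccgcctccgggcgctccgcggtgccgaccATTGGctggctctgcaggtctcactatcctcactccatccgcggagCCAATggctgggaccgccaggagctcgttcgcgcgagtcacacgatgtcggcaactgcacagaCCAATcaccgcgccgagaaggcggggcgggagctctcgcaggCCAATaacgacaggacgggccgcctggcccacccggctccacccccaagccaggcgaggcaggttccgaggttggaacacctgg
SREBF2, chr22:41832855-41833154, plus strand: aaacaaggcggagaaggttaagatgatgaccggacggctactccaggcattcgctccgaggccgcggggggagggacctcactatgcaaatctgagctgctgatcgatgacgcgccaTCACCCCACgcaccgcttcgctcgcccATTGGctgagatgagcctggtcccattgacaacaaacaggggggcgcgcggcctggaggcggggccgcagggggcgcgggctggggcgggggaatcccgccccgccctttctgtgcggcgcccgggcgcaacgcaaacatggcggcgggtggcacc
Relative to the start, INSIG1 held an E-box at -55 and a CCAAT box at -170. STARD4 held CCAAT boxes at -161 and -130, and MSMO1 held 4, the nearest at -34. SC5D held an E-box at -131, and SREBF2 held the sterol regulatory element core at -133. Of the 32 genes, 28 had a promoter entry, and ACAT2, FDFT1, SQLE and FASN had none. The sterol regulatory element core was in 1 of 28, or 3.57%, against 1.15% of all 27305 promoters. CACGTG was in 4 of 28 (LSS, SC5D, INSIG1 and ELOVL5), or 14.3%, against 7.43% of all promoters. CCAAT was in 19 of 28, or 67.9%, against 35.7% of all promoters, and 13 of them held more than 1 copy. In NSDHL, 1 pair of CCAAT matches on opposite strands overlapped. These matches describe the letters only.

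Levels are given as CPM, the count of a gene relative to the library's total after scaling by TMM factors. Total counts ran from 13607953 to 22222121 per library, so a count of 0 would allow up to 0.135 to 0.2205 CPM (3 counts of the total, counting error only). All 32 genes passed the count filter, as did 15673 genes in all, and the lowest single count among the 32 was 14, for HSD17B7 in ITGB4-high cells. ITGB4 itself was at 383 CPM in ITGB4-high cells, 305 to 470.2 CPM in lung-recovered cells, and 25.9 and 24.6 CPM in controls. The mesenchymal markers VIM, CD44 and FN1 summed to 5966 to 10787 CPM in ITGB4-high and lung-recovered cells, and 13369 and 13777 CPM in controls. FN1 made most of that gap, at 1941 to 6985 CPM in ITGB4-high and lung-recovered cells, against 9623 and 9686 CPM in controls. CD44 ran from 469 to 958 CPM in ITGB4-high and lung-recovered cells, against 422 and 494 CPM in controls. The hormone receptors ESR1 and PGR summed to at most 0.415 CPM, with PGR at 0 in all 6. Of 5 leukocyte markers, 3 were tested and CD3E was at 0 throughout. The list summed to 0.894 to 4.80 CPM in ITGB4-high and lung-recovered cells, and 1.59 and 0.734 CPM in controls. PTPRC was at 2.32 CPM in LM2 clone 1 and 2.69 CPM in bleomycin cells, against 0.207 and 0.184 CPM in controls. It was at 0.255 CPM in LM2 clone 3 and 0.0729 CPM in ITGB4-high cells. CD68 was at 1.60 CPM in bleomycin cells and 0.415 to 0.511 CPM in the other libraries. LYZ was highest in control clone 1, at 0.899 CPM. Of 4 alveolar markers, SFTPC and SFTPA1 were at 0 throughout, and the list summed to 2.48 to 3.87 CPM in ITGB4-high and lung-recovered cells, and 2.35 and 1.84 CPM in controls. Of 4 endothelial markers, 2 were tested and CDH5 was at 0 throughout, and the list summed to 2.55 to 11.2 CPM in ITGB4-high and lung-recovered cells, and 72.7 and 107.5 CPM in controls. KDR was at 0.155 to 6.51 CPM in ITGB4-high and lung-recovered cells, against 70.7 and 105 CPM in controls. PECAM1 went the other way, at 9.41 CPM in bleomycin cells and 2.32 to 3.64 CPM in the other lung and ITGB4-high libraries, against 1.80 and 2.02 CPM in controls. The part of these differences in the values of the 32 genes was not tested. The genes counted are human, so these marker lists could miss cells of the mouse lungs. LM2 cells come from breast cancer too, and the lists hold no marker chosen to tell them from Sum159 cells.

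Between genes, levels were compared as CPM per kilobase of exon. On that scale the highest of the set in control cells were SCD at 75.5, the desaturase that makes oleate, and ACLY at 68.7, which splits citrate into acetyl-CoA. ELOVL5, an elongase of polyunsaturated fatty acids, followed at 62.7 CPM per kilobase, and ME1, malic enzyme and a source of NADPH, at 48.3. The lowest were MVK at 1.24, CYP51A1 at 0.61 and HSD17B7 at 0.46 CPM per kilobase. The groups by role overlapped on this scale, with FADS2 at 1.61 and ACSS2 at 7.06 CPM per kilobase, against 17.0 for SQLE. The 2 controls were not alike for this set: control clone 3 was above control clone 1 in 28 of 32 genes, beside 55.8% of all tested genes, with a median log2 difference of 0.26 against 0.03 over all tested genes.

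**Figure D1:**
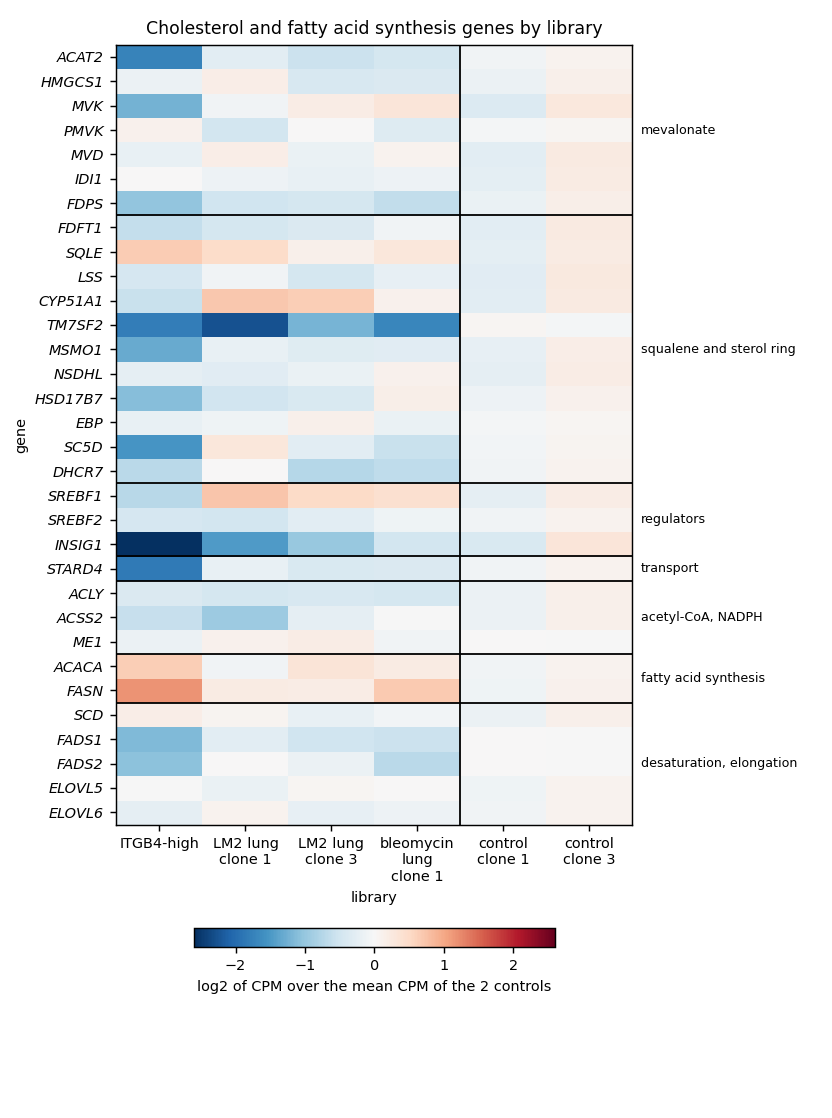
Log2 of the CPM of each of the 32 genes (rows, grouped by role) over the mean CPM of the 2 controls, in each of the 6 libraries (columns). The ITGB4-high column is darkest blue at INSIG1 and also blue at ACAT2, STARD4, TM7SF2 and SC5D, while FASN, SQLE and ACACA are red in it; TM7SF2 is blue in all 3 lung-recovered libraries.

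ITGB4-high cells carried less message for most sterol genes than control cells and more for the 2 enzymes of fatty acid synthesis proper, but no single gene passed edgeR's test. INSIG1 stood 6.01-fold lower, STARD4 3.57-fold, TM7SF2 3.48-fold, ACAT2 3.34-fold and SC5D 2.88-fold lower than the control mean, while FASN stood 2.26-fold higher. Of the 32 genes, 0 passed an edgeR adjusted p of 0.05, beside 0.0893% of tested genes. With no adjustment, 2 were higher at p under 0.05, beside 10.4% of tested genes, and 11 were lower, beside 14.2%. DESeq2 called 8, beside 10.7% of genes: FASN was higher, beside 3.45%, and ACAT2, FADS1, FDPS, INSIG1, MSMO1, SC5D and STARD4 were lower, beside 7.27%. The ITGB4-high library was below both controls for 22 genes, beside 45.2% of tested genes, and above both for 5, beside 43.6%. The median fitted log2 value of the set was -0.52, against -0.01 over all tested genes, and it was -0.33 without control clone 3. In bulk RNA, a loss in some cells and less message in every cell cannot be told apart. Without LM2 clone 1, and likewise without LM2 clone 3, edgeR called 18 of the 32 (3 higher, 15 lower), beside 42.0% and 41.6% of genes; without either control it called 0. With no count filter it called 11, beside 8.14% of genes.

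Among the regulators, INSIG1, the retention protein that blocks SREBP processing and is itself an SREBP target, had the lowest fitted value of the set. The gene lies at chr7:155297776-155310235 on the plus strand. INSIG1 was at 7.36 CPM in ITGB4-high cells, against 33.4 and 55.1 CPM in control clones 1 and 3. The ITGB4-high value lay below both controls, which themselves differed by more than those of most other members. The fitted log2 fold change was -2.59 (SE 0.448, edgeR adjusted p 0.0753), while tested genes within 10 Mb of it had a median of -0.25. With clone as a block, INSIG1 passed at an edgeR adjusted p of 0.0315. The ITGB4-high library names no clone and was set midway between the clones in that fit, so the block acts there on the other libraries, whose clone differences correlated at 0.00115 between LM2 and control. SREBF1, which encodes SREBP-1, was at 34.1 CPM in ITGB4-high cells, against 48.0 and 64.7 CPM in controls. Its fitted log2 fold change was -0.73 (SE 0.252, edgeR adjusted p 0.175). The 128 tested genes within 10 Mb of SREBF1 on chromosome 17 had a median of -0.83, so the gene did not stand apart from its neighbourhood; the part of this segment in the SREBF1 value was not tested. SREBF2, which encodes SREBP-2, was at 119.8 CPM in ITGB4-high cells, against 152.9 and 173 CPM in controls, with a fitted log2 fold change of -0.45 (edgeR adjusted p 0.221). All 3 regulators were below both controls, beside 45.2% of all tested genes.

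STARD4, a soluble carrier that moves cholesterol between membranes, was the only transport gene in the set. The gene lies at chr5:111496033-111512590 on the minus strand. STARD4 was at 10.1 CPM in ITGB4-high cells, against 34.0 and 38.4 CPM in controls. The controls were close to each other and the ITGB4-high value lay far below both. The fitted log2 fold change was -1.84 (SE 0.225, edgeR adjusted p 0.0608), against a median of 0.07 for its neighbours. With the same clone block the edgeR adjusted p of STARD4 was 0.0492, and INSIG1 and STARD4 were the 2 members called, beside 2.32% of genes.

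The mevalonate steps did not move as one. ACAT2, which joins 2 acetyl-CoA molecules at the start of the route, was at 13.6 CPM in ITGB4-high cells, against 42.5 and 48.1 CPM in controls (fitted log2 fold change -1.74, SE 0.236, edgeR adjusted p 0.062). Exons of ACAT2 share 52.3% of their bases with opposite-strand genes, among them SOD2 and TCP1, and the counting's strand setting is not given in the sources used here, so its counts are uncertain. MVK, mevalonate kinase, was at 3.43 CPM in ITGB4-high cells, against 6.29 and 9.78 CPM in controls (fitted log2 fold change -1.23, edgeR adjusted p 0.166). FDPS, farnesyl diphosphate synthase, was at 52.2 CPM in ITGB4-high cells, against 93.9 and 117 CPM in controls (fitted log2 fold change -1.02, SE 0.204, edgeR adjusted p 0.0896). These 3 of the 7 genes lay below both controls, beside 45.2% of all tested genes. FDPS has 8 named pseudogenes, so shared reads could be split. HMGCS1, which condenses acetoacetyl-CoA to HMG-CoA, was at 46.4 CPM in ITGB4-high cells, against 46.1 and 56.6 CPM in controls. IDI1, isopentenyl diphosphate isomerase, was at 39.5 CPM in ITGB4-high cells, against 33.2 and 45.6 CPM in controls, and MVD, mevalonate diphosphate decarboxylase, was at 6.92 CPM, against 6.501 and 9.27 CPM. These 3 overlapped the control range. PMVK, phosphomevalonate kinase, was above both controls at 15.6 CPM in ITGB4-high cells, against 13.97 and 14.9 CPM in controls, a gap smaller than its fitted error (log2 fold change 0.11, SE 0.288). The 7 genes had a median fitted log2 value of -0.19.

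Of the 11 squalene and sterol ring genes, 9 were below both controls, beside 45.2% of all tested genes. With no adjustment, 3 of the 11 were lower at p under 0.05 in edgeR, beside 14.2%. The median fitted log2 value of the 11 genes was -0.62. SC5D, lathosterol oxidase, was at 29.9 CPM in ITGB4-high cells, against 82.1 and 90.1 CPM in controls (fitted log2 fold change -1.53, SE 0.298, edgeR adjusted p 0.0865). MSMO1, the oxidase that starts removal of the methyl groups at carbon 4 of the sterol ring, was at 15.8 CPM in ITGB4-high cells, against 33.9 and 44.2 CPM in controls (fitted log2 fold change -1.30, SE 0.246, edgeR adjusted p 0.0837). Both genes lay far under the lower control. TM7SF2, one of the sterol reductases that act on the double bond at carbon 14, was at 1.60 CPM in ITGB4-high cells, against 5.74 and 5.42 CPM in controls (fitted log2 fold change -1.79, SE 0.577, edgeR adjusted p 0.157). That SE was larger than those of CYP51A1 (0.449) and HSD17B7 (0.446), which had lower levels in controls. The controls of TM7SF2 were close to each other, while its LM2 libraries stood at 1.16 and 2.43 CPM. The source of the wide error was not tested. FDFT1, squalene synthase, was at 52.2 CPM in ITGB4-high cells, against 66.5 and 93.8 CPM in controls, and DHCR7, the reductase that forms cholesterol from its last precursor, was at 30.8 CPM, against 46.9 and 52.9 CPM. HSD17B7, a sterol 3-keto reductase with 2 named pseudogenes, was at 1.02 CPM in ITGB4-high cells, against 2.01 and 2.39 CPM in controls. LSS, lanosterol synthase, EBP, the sterol isomerase, and CYP51A1, the lanosterol demethylase, were also below both controls, at fitted log2 values of -0.44, -0.18 and -0.59. Exons of CYP51A1 share 79.4% of their bases with same-strand genes of the annotation, and its counts are uncertain. NSDHL, a sterol dehydrogenase, overlapped the controls at 11.3 CPM in ITGB4-high cells, against 11.2 and 15.2 CPM in controls. SQLE, squalene epoxidase, an early and rate-limiting step, was the exception: it was at 114.9 CPM in ITGB4-high cells, against 61.6 and 84.7 CPM in controls (fitted log2 fold change 0.65, SE 0.262, edgeR adjusted p 0.218).

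Both genes of fatty acid synthesis proper stood above both controls in ITGB4-high cells, beside 43.6% of all tested genes. FASN, the synthase that builds palmitate from malonyl-CoA, was at 435 CPM in ITGB4-high cells, against 178 and 207 CPM in controls. The gene lies at chr17:82078333-82098332 on the minus strand. The fitted log2 fold change was 1.17 (SE 0.165, edgeR adjusted p 0.0636), while its 168 neighbours had a median of -0.02. ACACA, acetyl-CoA carboxylase, the step before FASN, was at 287 CPM in ITGB4-high cells, against 174 and 196 CPM in controls (fitted log2 fold change 0.63, SE 0.232, edgeR adjusted p 0.192). The 3 suppliers were each below both controls, beside 45.2% of all tested genes, and 0 of them had an edgeR unadjusted p under 0.05. ACLY was at 274 CPM in ITGB4-high cells, against 323.5 and 393 CPM in controls, ACSS2, which makes acetyl-CoA from acetate, was at 25.1 CPM, against 34.2 and 41.9 CPM, and ME1 was at 146 CPM, against 163 and 162 CPM. Their fitted log2 values were -0.38, -0.60 and -0.16, with edgeR adjusted p values of 0.282 to 0.545. The ME1 value was close in size to its SE of 0.148.

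Within desaturation and elongation, the neighbouring polyunsaturated desaturases stood low and the other 3 genes stood near the controls. FADS1, the delta-5 desaturase of polyunsaturated fatty acids, was at 149 CPM in ITGB4-high cells, against 329.6 and 328.9 CPM in controls (fitted log2 fold change -1.14, SE 0.188, edgeR adjusted p 0.0704). FADS2, the delta-6 desaturase next to it, was at 8.53 CPM in ITGB4-high cells, against 17.8 and 17.7 CPM in controls (fitted log2 fold change -1.06, SE 0.225, edgeR adjusted p 0.0941). The controls nearly coincided for both genes, which overlap each other on opposite strands over 4.8% and 4.4% of their exon bases. Their 247 neighbours had a median of 0.15. SCD was at 455 CPM in ITGB4-high cells, against 363 and 446 CPM in controls, ELOVL5 was at 237 CPM, against 222 and 256 CPM, and ELOVL6, which elongates palmitate, was at 96.2 CPM, against 107 and 121 CPM. SCD was barely above the higher control, ELOVL5 lay within the controls and ELOVL6 was below both. Their fitted log2 values ran from -0.24 to 0.17.

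**Figure D2:**
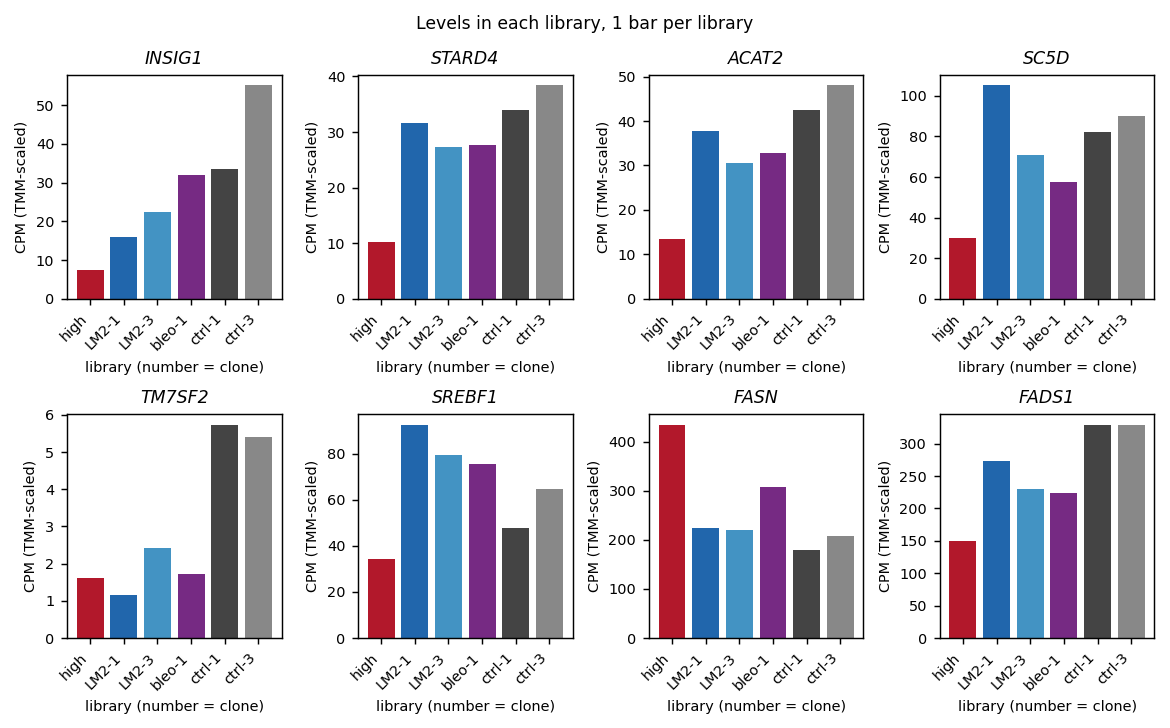
CPM (TMM-scaled, linear axes from 0) of 8 genes in each library, 1 bar per library; bars run from ITGB4-high (red) through the 3 lung-recovered libraries (blue and purple) to the 2 controls (grey). INSIG1 is at 7.36 CPM in the ITGB4-high library, STARD4, ACAT2, SC5D and FADS1 are lowest in it and FASN is highest in it at 435 CPM.

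Lung-recovered cells resembled controls more closely over the set, with a few named exceptions. TM7SF2 stood at 0.318 of the control mean and INSIG1 at 0.528 of it, while SREBF1 stood 1.47-fold and FASN 1.30-fold above it. Against control, 0 of 32 genes passed an edgeR adjusted p of 0.05, beside 0.498% of tested genes. With no adjustment, 1 was higher at p under 0.05, beside 9.26%, and 6 were lower, beside 11.3%. DESeq2 called 1, TM7SF2, beside 8.85% of genes in both directions and 4.36% lower. All 3 lung libraries were below both controls for 8 genes, beside 25.4% of tested genes, and above both for 2, beside 20.4%. The 8 were ACAT2, FDPS, TM7SF2, SREBF2, INSIG1, STARD4, ACLY and FADS1, and the 2 were SREBF1 and FASN. The median fitted log2 value was -0.20, against 0.00 over all tested genes. Without LM2 clone 1 edgeR called 1 gene of the set, DHCR7, beside 2.5% of genes, and without LM2 clone 3 it called 1, TM7SF2, beside 6.55%; without either control it called 0. With no count filter it called 3 (FDPS, INSIG1 and TM7SF2), beside 6.47% of genes, and with the clone block 0, beside 0.249%. Without control clone 3 the set's median was -0.032. Each lung library set against the control of its own clone was lower for 10 genes in all 3 cases, beside 29.1% of tested genes, and higher for 3, beside 23.9%. The set's median log2 ratio to the own clone's control was -0.01 for LM2 cells of clone 1, -0.37 for those of clone 3 and -0.03 for bleomycin cells. The lowest of these medians was that of clone 3, whose control was the higher one for most of the set.

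TM7SF2 was low in every lung-recovered library. It was at 1.16 and 2.43 CPM in LM2 cells of clones 1 and 3 and 1.73 CPM in bleomycin cells, against 5.74 and 5.42 CPM in controls. The lung and control libraries did not overlap, and the ITGB4-high library, at 1.60 CPM, lay among the lung values. The fitted log2 fold change in all lung cells was -1.64 (SE 0.353, edgeR adjusted p 0.101, DESeq2 adjusted p 0.0103). TM7SF2 lies at chr11:65111845-65116384 on the plus strand, and its 288 neighbours had a median of 0.15 in the same comparison. In LM2 clone 1, neighbours of the chromosome 11 genes of the set stood above their own control by a median log2 ratio of 0.38 to 0.41, whereas TM7SF2 stood at -2.19 there.

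INSIG1 was graded over the lung libraries, at 15.9 and 22.3 CPM in LM2 cells of clones 1 and 3 and 31.9 CPM in bleomycin cells, against 33.4 and 55.1 CPM in controls. The mean was 23.4 ± 8.02 CPM in lung cells (SD, n = 3) and 44.3 ± 15.4 CPM in controls (SD, n = 2). The lung SD spans both triggers, so it is not the spread of replicates of a condition. Both LM2 values lay well under both controls, while the bleomycin value was just under the lower control. Against the control of its own clone, INSIG1 was at a log2 ratio of -1.06 for LM2 cells of clone 1, -1.30 for those of clone 3 and -0.07 for bleomycin cells. In all lung cells the fitted log2 fold change was -0.92 (SE 0.339, edgeR adjusted p 0.213). SREBF1 went the other way, at 92.7 and 79.5 CPM in LM2 cells of clones 1 and 3 and 75.5 CPM in bleomycin cells, against 48.0 and 64.7 CPM in controls. All 3 lung libraries exceeded both controls, and each exceeded the control of its own clone. The fitted log2 fold change was 0.55 (SE 0.178, edgeR adjusted p 0.180), against 0.06 for its neighbours. SREBF2 was at 117.5 and 135 CPM in LM2 cells of clones 1 and 3 and 150.4 CPM in bleomycin cells, against 152.9 and 173 CPM in controls, so the SREBP genes stood on opposite sides of the controls.

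Of the other sterol genes, FDPS was at 73.4 and 77.4 CPM in LM2 cells of clones 1 and 3 and 68.2 CPM in bleomycin cells, against 93.9 and 117 CPM in controls (fitted log2 fold change -0.53, SE 0.142, edgeR adjusted p 0.141). ACAT2 was at 37.7 and 30.6 CPM in LM2 cells of clones 1 and 3 and 32.9 CPM in bleomycin cells, against 42.5 and 48.1 CPM in controls (fitted log2 fold change -0.43, SE 0.149, edgeR adjusted p 0.201). STARD4 was at 31.6 and 27.4 CPM in LM2 cells of clones 1 and 3 and 27.7 CPM in bleomycin cells, against 34.0 and 38.4 CPM in controls. All 3 genes lay below both controls in every lung library, by less than in ITGB4-high cells. The remaining mevalonate and ring genes overlapped the controls, with fitted log2 values in all lung cells from -0.43 for DHCR7 to 0.49 for CYP51A1. SQLE was at 102 and 80.5 CPM in LM2 cells of clones 1 and 3 and 90.2 CPM in bleomycin cells, against 61.6 and 84.7 CPM in controls. LM2 clone 3 therefore lay within the control range for SQLE, while both clone 1 libraries lay above it.

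Among the fatty acid genes, FASN was at 224.5 and 219.8 CPM in LM2 cells of clones 1 and 3 and 308 CPM in bleomycin cells, against 178 and 207 CPM in controls. The bleomycin library was the highest of the 3, and none overlapped the controls. The fitted log2 fold change was 0.38 in all lung cells (SE 0.193, edgeR adjusted p 0.319) and 0.68 in bleomycin cells (SE 0.167, edgeR adjusted p 0.237). ACLY was at 261 and 268 CPM in LM2 cells of clones 1 and 3 and 260.5 CPM in bleomycin cells, against 323.5 and 393 CPM in controls (fitted log2 fold change -0.45, SE 0.133, edgeR adjusted p 0.163). FADS1 was at 274 and 229.8 CPM in LM2 cells of clones 1 and 3 and 224 CPM in bleomycin cells, against 329.6 and 328.9 CPM in controls (fitted log2 fold change -0.44, SE 0.137, edgeR adjusted p 0.170). Both genes were below both controls in every lung library. FADS2 was at 17.8 and 16.1 CPM in LM2 cells of clones 1 and 3 and 10.9 CPM in bleomycin cells, against 17.8 and 17.7 CPM in controls, so only the bleomycin library stood clearly lower. ACACA, ACSS2, ME1, SCD, ELOVL5 and ELOVL6 overlapped the controls, with fitted log2 values from -0.34 for ACSS2 to 0.16 for ACACA.

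**Figure D3:**
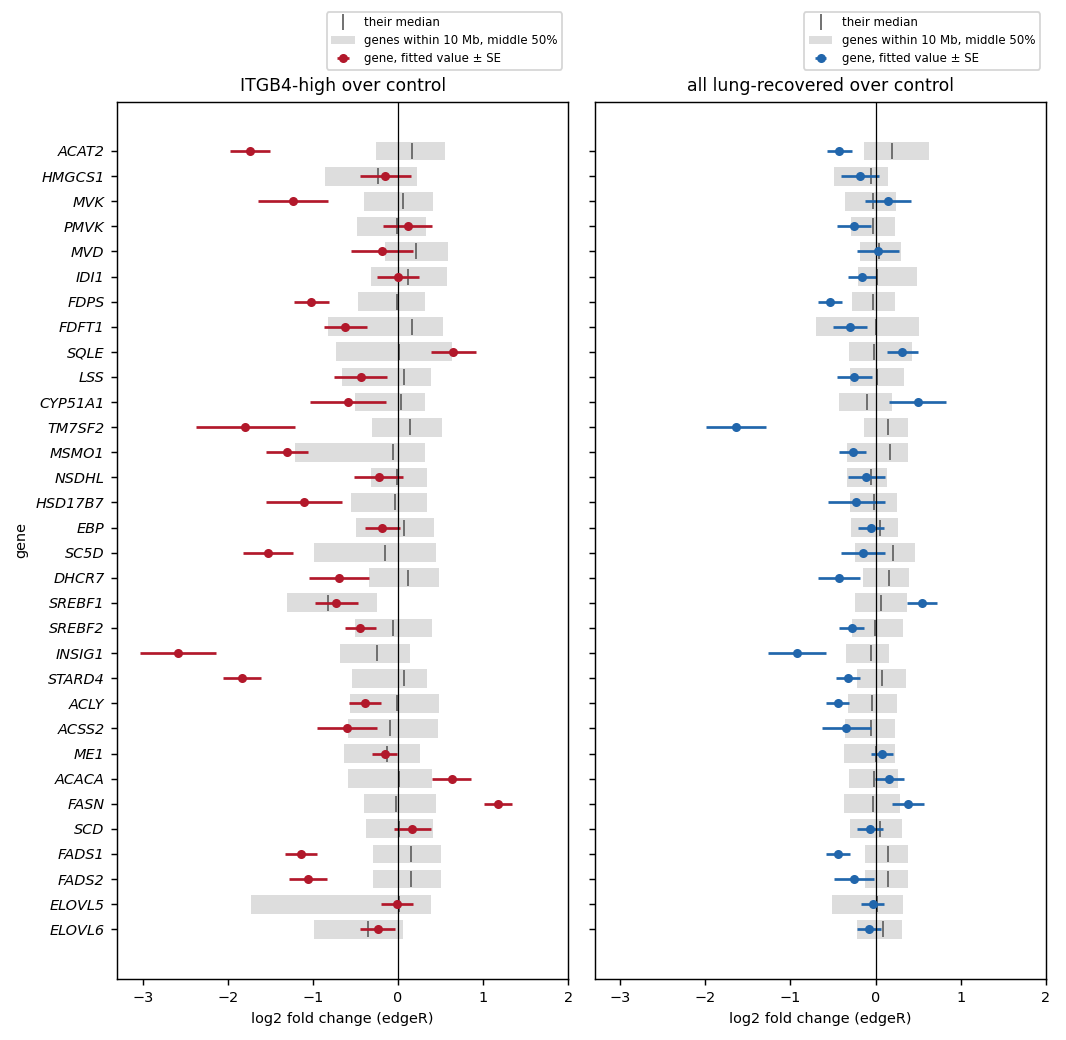
Fitted log2 fold change (edgeR, point ± SE) of each of the 32 genes in ITGB4-high cells over control (left panel) and in all lung-recovered cells over control (right panel), beside the interquartile range of tested genes within 10 Mb (grey bar) and their median (tick). INSIG1, STARD4, ACAT2 and TM7SF2 lie left of their neighbours in the left panel, SREBF1 lies on its neighbours' median of -0.83 there, and TM7SF2 is the farthest left in the right panel.

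The triggers taken singly gave the same count of 0. In LM2 lung cells against control, 0 of 32 genes passed an edgeR adjusted p of 0.05, beside 0.0319% of tested genes, while with no adjustment 1 was higher at p under 0.05, beside 7.29%, and 5 were lower, beside 8.33%. DESeq2 called INSIG1 (log2 fold change -1.20, DESeq2 adjusted p 0.0393), beside 4.48% of genes in both directions and 2.04% lower. The edgeR value for INSIG1 was -1.21 (SE 0.319, edgeR adjusted p 0.25). Both LM2 libraries lay below both controls for 11 genes, beside 30.2% of tested genes, and above both for 4, beside 26.2%. Without LM2 clone 1 edgeR called 4 of the set, beside 11.6% of genes, without LM2 clone 3 it called 8, beside 40.8%, and without either control it called 0. With no count filter it called 2 (INSIG1 and TM7SF2), beside 5.25% of genes, and with the clone block 0, beside 0.23%. The set's median was -0.19, and 0.016 without control clone 3. In bleomycin cells against control, 0 of 32 passed in edgeR, beside 0.0255% of tested genes. With no adjustment 1 was higher at p under 0.05, beside 6.65%, and 4 were lower, beside 7.8%; DESeq2 called 0, beside 4.19%, as did edgeR with no count filter, beside 4.3%, and with the clone block, beside 0.051%. The bleomycin library was below both controls for 17 genes, beside 44.9% of tested genes, and above both for 6, beside 40.5%. Without LM2 clone 1, and likewise without LM2 clone 3, edgeR called 9 genes of the set in bleomycin cells (1 higher, 8 lower), beside 28.1% and 27.2% of genes; without either control it called 0. The comparisons share their controls, so these counts are not independent.

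Bleomycin and LM2 cells were also compared with each other. Of the 32 genes, 0 passed in edgeR, beside 0.0% of tested genes. With no adjustment FASN was higher in bleomycin cells at p under 0.05, beside 2.04%, and FADS2 was lower, beside 2.58%. DESeq2 called 0, beside 0.404%, as did edgeR with no count filter, beside 0.709%, and with the clone block, beside 0.0%. The bleomycin library was below both LM2 libraries for 9 genes, beside 29.8% of tested genes, and above both for 8, beside 30.2%. INSIG1 had the largest positive fitted value at 0.74 (SE 0.378) and FADS2 the most negative at -0.63 (SE 0.219), with edgeR adjusted p values of 0.926. The median over the set was -0.04, against -0.02 over all tested genes. Without LM2 clone 3, edgeR called 6 of the set, beside 19.2% of genes, and without LM2 clone 1 it called 0, beside 7.42%.

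Lung cells were also set against ITGB4-high cells, which had ITGB4 far above controls as well. Lung cells carried more message for most of the sterol genes that were low in ITGB4-high cells. Both comparisons use the same single ITGB4-high library, so a higher lung value for genes picked as low there was likely beforehand. The lung mean stood 3.17-fold higher for INSIG1, 2.85-fold for STARD4, 2.6-fold for SC5D and for MVK, 2.49-fold for ACAT2 and 2.42-fold for SREBF1. Again 0 of 32 genes passed in edgeR, beside 0.108% of tested genes, while with no adjustment 10 were higher at p under 0.05, beside 10.4%, and 1 was lower, beside 7.86%. DESeq2 called 8, beside 8.02% of genes in both directions, all 8 higher in lung cells, beside 5.82%: ACAT2, FADS1, INSIG1, MSMO1, MVK, SC5D, SREBF1 and STARD4. All 3 lung libraries were above the ITGB4-high library for 17 genes, beside 30.5% of tested genes, and below it for 7, beside 30.6%. The lowest edgeR adjusted p was that of STARD4, at 0.0734 (fitted log2 fold change 1.51, SE 0.207). SREBF1 had a fitted log2 fold change of 1.27 (SE 0.242, edgeR adjusted p 0.0937), and its neighbours on chromosome 17 had a median of 0.85; the part of this segment was not tested. FASN was lower in lung cells at -0.79 (SE 0.231, edgeR adjusted p 0.169). TM7SF2 differed by less than its error, at a fitted log2 value of 0.15 with an SE of 0.488. Without LM2 clone 1 edgeR called 6 of the set, all higher, beside 9.1% of genes, and 0 without LM2 clone 3, beside 0.239%. With no count filter it called 8, beside 4.23%, and with the clone block 0, beside 0.0%.

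Other genes of sterol and lipid handling were read from lists by function; in edgeR, 0 members of any list passed in any comparison with control. Sterol export genes under LXR control had the widest differences. ABCA1, the pump that loads cholesterol onto apolipoprotein A-I, was at 58.3 CPM in ITGB4-high cells, 223 and 56.6 CPM in LM2 cells of clones 1 and 3 and 116 CPM in bleomycin cells, against 8.58 and 11.0 CPM in controls. ABCG1, which exports sterol to HDL, was at 190.1 CPM in ITGB4-high cells, 159 and 40.0 CPM in LM2 cells of clones 1 and 3 and 47.5 CPM in bleomycin cells, against 17.9 and 13.9 CPM in controls. Both genes were above both controls in all 4 other libraries. For ABCA1 the fitted log2 fold change was 2.57 in ITGB4-high cells (edgeR adjusted p 0.145) and 3.75 in all lung cells (edgeR adjusted p 0.0734). For ABCG1 it was 3.58 in ITGB4-high cells (edgeR adjusted p 0.0968) and 2.37 in all lung cells (edgeR adjusted p 0.155). DESeq2 called both genes higher in each of these comparisons. Of the 4 genes of this list, 2 were higher in ITGB4-high cells at p under 0.05 with no adjustment, beside 10.4% of tested genes. In all lung cells 3 were higher, beside 9.26%, and 1 was lower, beside 11.3%. Among the remaining genes, LPCAT3, a phospholipid remodelling enzyme, had fitted log2 values of 0.36 in ITGB4-high and 0.73 in lung cells, and MYLIP, a ubiquitin ligase of lipoprotein receptors, had -0.60 and -0.68. NR1H3, which encodes LXR-alpha, was at 3.06 CPM in ITGB4-high cells, 7.27 and 14.7 CPM in LM2 cells of clones 1 and 3 and 11.5 CPM in bleomycin cells, against 15.5 and 16.2 CPM in controls. It was below both controls throughout, unlike the export genes.

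**Figure D4:**
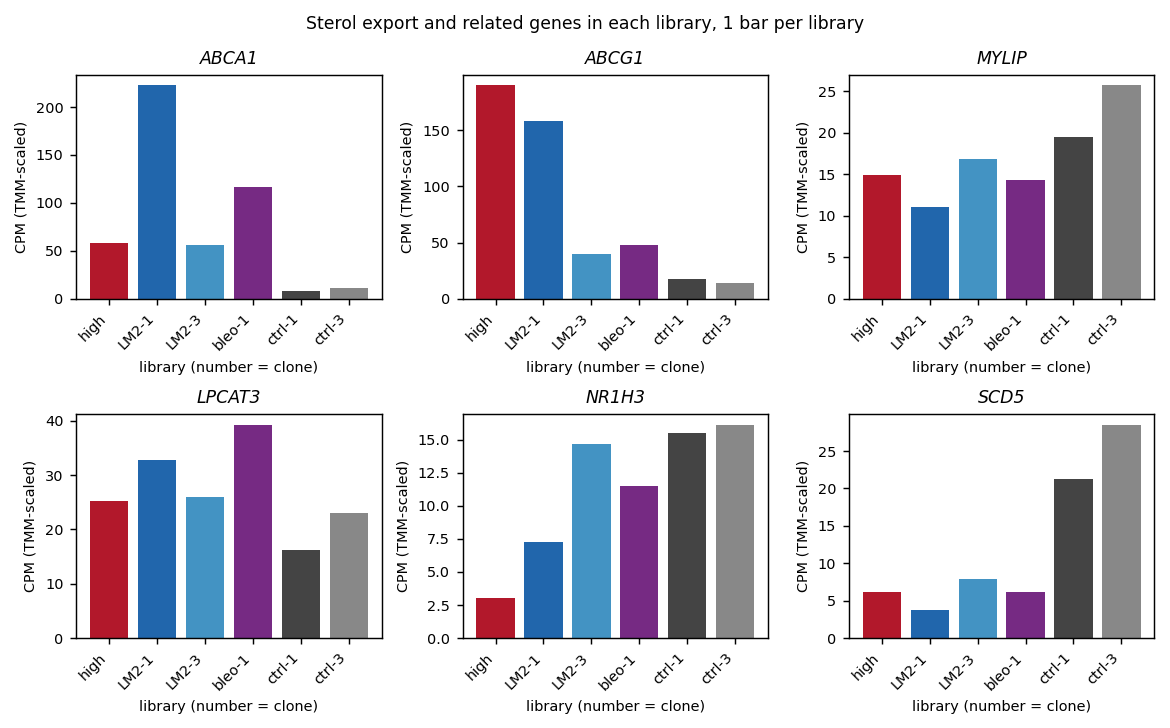
CPM (TMM-scaled, linear axes from 0) of the 4 LXR target genes, NR1H3 and SCD5 in each library, 1 bar per library, in the order ITGB4-high, 3 lung-recovered, 2 controls. ABCA1 and ABCG1 are above both controls in all 4 other libraries, and NR1H3 and SCD5 are below both controls in them.

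Of the 6 genes of sterol sensing, 3 were lower and 0 higher in ITGB4-high cells and 1 was lower and 0 higher in all lung cells at p under 0.05 with no adjustment, with list medians of -0.36 and -0.14. The shares over all tested genes, for this list and those that follow, were 14.2% lower and 10.4% higher in ITGB4-high cells, and 11.3% lower and 9.26% higher in all lung cells, so 1 gene in a list of this size is near the background. SCAP, the escort of the SREBPs, had fitted log2 values of -0.22 and -0.18. MBTPS1, which makes the first SREBP cut, had -0.17 and -0.39, and NR1H2, which encodes LXR-beta, had 0.03 and -0.11. SCAP, MBTPS1 and NR1H2 were not among the genes lower in ITGB4-high cells, while MBTPS1 was the 1 lower in all lung cells. Of 7 sterol trafficking and storage genes, 0 were higher and 3 lower in ITGB4-high cells, and 1 higher and 1 lower in all lung cells, at that p. LIPA, the lysosomal lipase that frees cholesterol from its esters, had fitted log2 values of -1.07 in ITGB4-high and -0.998 in all lung cells, NPC2, a lysosomal cholesterol carrier, had -1.08 and -0.42, and OSBP, a sterol exchanger, had 0.15 and 0.75. Of 5 further SREBP-2 targets, 4 were tested, with 1 lower and 0 higher in each comparison, and their fitted log2 values ran from -0.97 to 0.97 in ITGB4-high cells and from -0.92 to 0.83 in lung cells; TMEM97, a sterol-responsive membrane protein, had -0.87 and -0.92. The 9 isoprenoid branch genes had 1 lower in ITGB4-high cells and 0 either way in lung cells, with medians of 0.33 and 0.06. The 1 lower gene is not among those named next. FNTB, a farnesyltransferase subunit, had fitted log2 values of -0.47 and -0.41, DHDDS and NUS1, the subunits of the dolichol synthase, had 0.46 and 0.21, and 0.60 and 0.36, and PDSS1, of coenzyme Q synthesis, had 0.68 and 0.25.

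Of 15 further fatty acid synthesis genes, 14 were tested, and 6 were lower in ITGB4-high cells and 5 in all lung cells at p under 0.05 with no adjustment, with 0 higher in either, beside 14.2% of tested genes lower in ITGB4-high and 11.3% in lung cells. SCD5, a second stearoyl-CoA desaturase, was at 6.12 CPM in ITGB4-high cells, 3.71 and 7.85 CPM in LM2 cells of clones 1 and 3 and 6.21 CPM in bleomycin cells, against 21.2 and 28.6 CPM in controls. SCD5 was thus below both controls in all 4 other libraries, whereas SCD was not. Its fitted log2 fold change was -2.02 in ITGB4-high cells (edgeR adjusted p 0.124) and -2.07 in all lung cells (edgeR adjusted p 0.0637). SLC25A1, the mitochondrial citrate carrier that feeds ACLY, had fitted log2 values of -1.36 and -0.89, and HACD3, a dehydratase of fatty acid elongation, had -0.79 and -0.53. Of 5 acyl-CoA synthetases, which activate fatty acids, 4 were tested, with 3 lower in ITGB4-high cells and 0 either way in lung cells. ACSL5 was at 13.6 CPM in ITGB4-high cells, 78.1 and 44.4 CPM in LM2 cells of clones 1 and 3 and 50.9 CPM in bleomycin cells, against 53.9 and 65.3 CPM in controls, while ACSL1, ACSL3 and ACSL4 had fitted log2 values of -0.76, -0.46 and 0.00 in ITGB4-high cells. Of 10 glycerolipid and droplet genes, 1 was higher and 2 lower in ITGB4-high cells, and 0 higher and 2 lower in lung cells. LPIN1, a phosphatidate phosphatase, had fitted log2 values of -1.27 and -0.79, the acyltransferases AGPAT1 and AGPAT2 had -0.08 and -0.35, and -0.17 and -0.32, and PNPLA2, a triglyceride lipase, had -0.26 and 0.37. The 12 fatty acid oxidation genes had 0 higher and 3 lower in ITGB4-high cells and 0 either way in lung cells. Of these, CPT1A and CPT2, the carnitine palmitoyltransferases, had 0.15 and 0.54, and -0.35 and 0.26, SLC25A20, the carnitine carrier, had -0.03 and -0.31, and ECHS1, an enoyl-CoA hydratase, had -0.63 and -0.24. In ITGB4-high cells DESeq2 called 4 of the further fatty acid synthesis genes lower, 1 glycerolipid gene higher, and 1 gene lower in each of the sensing, SREBP-2 target, trafficking, isoprenoid, acyl-CoA synthetase, glycerolipid and oxidation lists, beside 7.27% of all genes lower and 3.45% higher. In lung cells it called 4 further fatty acid synthesis genes and 1 glycerolipid gene lower, and 1 trafficking gene either way, beside 4.36% of all genes lower and 4.48% higher. A single call in a list of 9 to 12 genes is near these shares.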

How the data were processed

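Per the labels' protocols, strand-marked libraries were made from poly(A) RNA of 6 Sum159 samples. The submitters' processing notes name STAR 2.7.1a and the hg38 build. Values were deposited by the authors as raw counts, whole numbers per gene with no scaling; the counting program, annotation release and strand rule were not given in the sources used here. Of 58336 identifiers, 58216 matched GENCODE release 29 (GRCh38), which gave names, coordinates and exon lengths.

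Tests were edgeR 4.0.16 quasi-likelihood tests (R 4.3.3) with TMM factors, robust fitting and a minimum count of 10 (filterByExpr), with Benjamini-Hochberg adjustment over 15673 genes and a threshold of 0.05. All 6 libraries entered a fit of 4 groups (2 residual degrees of freedom, biological coefficient of variation 0.244) or, for all lung cells, of 3 classes (3 degrees of freedom, 0.243), so the groups of 1 library borrow the spread of the groups of 2. A standard error is the fitted log2 value over the square root of F. No source used here says that replicates came from separate cultures or mice, so p-values cover only the spread among these samples. Log2 ratios between libraries used a prior count of 2.

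Alternatives were RLE factors, no count filter, DESeq2 1.42.0, a clone block, and leaving out each library. Clone numbers pair libraries because the titles name the same clone; over 15673 genes, the clone differences of LM2 and control correlated at 0.00115. Replicate pairs differed beyond sampling noise (chi-square per degree of freedom 8.72 in controls, 80.1 in LM2). All 32 genes are named; from the other lists, up to 4 genes with a mean log2 CPM of at least 2 and the largest fitted values in lung cells. Some genes that this rule names are not reported here. Members and lists were chosen with earlier results of these data known. The script was tested on simulated data.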

Additional observations from a re-analysis of the deposited data

Results flagged for a closer look

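In 3 genes the LM2 libraries stood on opposite sides by clone, each set against the control of its own clone as a log2 ratio of CPM, by at least 0.25 either way. HMGCS1 was at 0.33 in clone 1 and -0.55 in clone 3. MVD was at 0.45 in clone 1 and -0.41 in clone 3. SC5D was at 0.36 in clone 1 and -0.35 in clone 3, while genes within 10 Mb of SC5D had a median of 0.38 in clone 1 and -0.01 in clone 3. With 1 library per clone and group, these differences between clones were not tested.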

How the results depend on the processing

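Counts of calls depended on the tool, the filter and the libraries. For members and ITGB4 with an edgeR unadjusted p under 0.05 in the main fit, 0 values changed sign. Of these values, 350 stayed on their side of the threshold, 98 newly passed and 8 no longer passed. They were picked by that p and refitted on all or most of the same libraries, so a kept sign was likely beforehand. No member passed in the main fit, so a member value that stayed was called in neither fit. Of 1383 values of members with a larger p, 90 changed sign. In the order ITGB4-high, LM2, bleomycin and all lung cells over control, bleomycin over LM2, and all lung over ITGB4-high cells, the genes called over the whole table were 14, 5, 4, 78, 0 and 17. They became 2707, 1748, 1430, 2152, 236 and 1406 with no count filter, and 1517, 647, 580, 1279, 56 and 1086 with DESeq2. RLE factors gave 74 in ITGB4-high and 14 in LM2 cells. The clone block gave 363, 36, 8 and 39 over control and 0 for lung over ITGB4-high cells. Of the 32 genes, no count filter called 11 in ITGB4-high, 2 in LM2 and 3 in all lung cells over control and 8 in lung over ITGB4-high cells; DESeq2 called 8, 1 and 1 in those over control and 8 in lung over ITGB4-high cells; the clone block called 2 in ITGB4-high cells and changed no other call of the set. Leaving out 1 library in turn gave 0 to 6611, 0 to 6303, 0 to 4424, 0 to 1012, 0 to 2969 and 0 to 1432 genes called, and 0 to 18, 0 to 8, 0 to 9, 0 to 1, 0 to 6 and 0 to 6 of the 32. The medians of the set then ran from -0.72 to -0.33, -0.30 to 0.016, -0.25 to -0.03, -0.30 to -0.032, -0.10 to 0.05 and 0.19 to 0.28. Leaving out 1 library leaves fewer samples for the spread. In the fit of 4 groups, the controls were the only replicate pair left without 1 LM2 library. Without 1 control, the LM2 libraries were the only pair left. The chi-square per degree of freedom was 8.72 in the control pair and 80.1 in the LM2 pair. The part of that difference in the counts of calls, and other causes, were not tested. Counts by library with RLE factors and library totals were judged the same within a set ratio, so genes close to a control could still change sides. HMGCS1 and NSDHL in ITGB4-high cells stood just above the lower control with TMM factors. With library totals alone both genes lie below both controls, so the ITGB4-high counts below both controls depend on the scaling. With 1 library in the ITGB4-high and bleomycin groups, a fold change at low depth, as for HSD17B7, carries a wide error. TM7SF2 also had a wide error, with its LM2 libraries at 1.16 and 2.43 CPM.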
